A study of Mus musculus with 6 samples.

Results

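The 10 genes described here form the core loop of the circadian clock and its first output: Per1, Per2, Per3, Cry1, Cry2, Arntl, Clock, Nr1d1, Nr1d2 and Dbp, out of 21938 protein-coding genes of the GENCODE annotation of GRCm38. They were taken as a fixed list of names. Each gene was described by its H3K27ac peaks (acetylated lysine 27 of histone H3, found at active promoters and enhancers) that lay within 2.5 kb of any of its transcription start sites (TSSs) or within the gene body and 20 kb on either side. This rule took 265 of the 135652 peaks. They merged into 73 of the 39942 regions that the peaks of the 6 lists form where they overlap or touch, and 28 of the 73 lay at a start of a clock gene.

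The peaks came from ChIP-seq of bulk retina of WT mice that were 3 months old at the first pressure elevation. In 3 retinas the intraocular pressure had been raised to 30 mmHg for 1 h, biweekly, 4 times in all (4xIOP). The control group was 3 untreated contralateral eyes. Retinas were taken on day 2 after the fourth elevation. Each retina gave 1 deposited peak list. The elevation was unilateral, so that a control eye had an elevated fellow eye in the same animal. Whether lists with the same number come from the same animal is not stated, and p-values below measure the spread between these lists. The hour at which eyes were collected is not given in the sources used here, and a protocol text shared by the samples names dasatinib and a vehicle, while the study describes the drug for old animals and no label of these young animals gives one.

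Before the results, a limit of the labels has to be stated. Inside the lists, peaks bear a name, and in control replicates 1 and 2 and 4xIOP replicates 1 and 2 this name is of the opposite group. Only replicate 3 of each group bears the name of its label. Groups follow the labels throughout, and the counts of promoters and regions, the score differences of the clock promoters and the arm difference are also given, with no test, for the lists labelled replicate 3 alone. Control replicate 3 stood apart, with 36509 peaks against 16195 to 21893 in the other 5 lists. Its median summit at shared regions held 28.4 times as many fragments as its genome mean, against 11.2 to 17.4 times in the others. The mean background, a measure of depth, ranged from 87.4 to 173 fragments per 10 kb. Of the retinal markers, all 6 rod genes had a marked promoter in every list, while 0 or 1 of 4 cone genes and 0 or 1 of 4 ganglion cell genes did. All 4 bipolar cell genes were marked in control replicate 3, against 0 or 1 in the other 5 lists. Of 3 Mueller glia genes 1 or 2 were marked, of 4 amacrine and horizontal cell genes 1, and of 4 genes of other tissues 0 or 1. None of the 3 microglial, 3 endothelial and 4 pigment epithelial genes was marked in any list. The tissue is a mixture, and fewer cells with a mark cannot be told apart from less of the mark per cell.

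In the clock, the proteins of Clock and Arntl (also called Bmal1) bind as a pair to E-boxes and switch on the Per and Cry genes, whose proteins then block that pair. Nr1d1 and Nr1d2 encode the repressors REV-ERB alpha and beta, which are switched on through E-boxes as well and which hold down Arntl through elements called ROREs. Dbp encodes a factor that acts on D-boxes and is among the most strongly cycling targets of the loop. The retina keeps its own circadian clock, which times melatonin and dopamine release, photoreceptor disc shedding and light sensitivity, and H3K27ac at clock targets is known to rise and fall over the day in other tissues.

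Elements of these kinds were looked up first, since they show how the acetylated regions lie on the clock genes. Searched on both strands were the E-box (CACGTG), the E′-box (CACGTT), the RORE core (TAGGTCA), the D-box (TTATGNAA) and the CRE (TGACGTCA). No motifs of different kinds shared a base at the clock genes. The stretches below come from the RefSeq copy of the GRCm38 assembly, are written 5′ to 3′ on the strand of the gene and have the motif letters in capitals, whichever strand the motif is read on. They are shown because each lies in or beside an acetylated region of its gene.
Nr1d1, first stretch of the intron: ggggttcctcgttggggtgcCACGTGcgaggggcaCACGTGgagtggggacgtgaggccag
Nr1d1, second stretch of the intron: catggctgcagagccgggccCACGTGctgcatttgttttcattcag
Nr1d1, upstream: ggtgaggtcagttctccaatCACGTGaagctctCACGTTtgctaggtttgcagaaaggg
Per1, upstream: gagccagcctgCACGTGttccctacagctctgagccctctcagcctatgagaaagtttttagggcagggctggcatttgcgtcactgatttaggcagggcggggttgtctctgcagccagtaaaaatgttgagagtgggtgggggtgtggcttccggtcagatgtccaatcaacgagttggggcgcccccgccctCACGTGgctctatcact
Cry1, upstream: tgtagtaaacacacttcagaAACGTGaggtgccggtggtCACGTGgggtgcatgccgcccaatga
Nr1d2, intron: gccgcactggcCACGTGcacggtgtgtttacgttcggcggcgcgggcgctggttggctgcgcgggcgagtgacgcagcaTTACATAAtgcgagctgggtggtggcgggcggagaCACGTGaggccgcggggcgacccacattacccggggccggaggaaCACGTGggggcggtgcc
Dbp, intron: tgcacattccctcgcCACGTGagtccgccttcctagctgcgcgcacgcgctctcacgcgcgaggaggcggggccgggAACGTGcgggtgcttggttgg
Per2, across the start: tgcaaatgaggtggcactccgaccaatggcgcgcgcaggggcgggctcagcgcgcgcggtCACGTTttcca
Per3, upstream: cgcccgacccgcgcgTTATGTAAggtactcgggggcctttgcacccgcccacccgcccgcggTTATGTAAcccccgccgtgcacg
Arntl, at the start: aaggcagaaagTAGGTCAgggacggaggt

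The stretches of the Nr1d1 intron (chr11:98773839-98773899 and chr11:98774134-98774179, minus strand) held 3 E-boxes, at +1472, +1456 and +1176 bp from the TSS. Positions of motifs are those of their centres, counted from the nearest annotated TSS in the direction of the gene. That upstream of Nr1d1 (chr11:98775662-98775720, minus strand) paired an E-box at -364 bp with an E′-box at -352 bp. The Per1 stretch (chr11:69094872-69095083, plus strand) had E-boxes at -332 and -148 bp. The Cry1 stretch (chr10:85185089-85185153, minus strand) had an E-box at -48 bp and an E′-box at -66 bp. In Nr1d2 (chr14:18238514-18238689, minus strand, intronic) there were E-boxes at +452, +554 and +600 bp and a D-box at +520 bp. The Dbp stretch (chr7:45707697-45707794, plus strand, intronic) had an E-box at +2430 bp and an E′-box at +2492 bp. The Per2 stretch (chr1:91459309-91459379, minus strand) is mostly upstream of the gene. Its E′-box lay in the transcript, centred at +8 bp, and 16 of the 71 bases of the stretch belong to the 5′ UTR. Per3 (chr4:151044801-151044885, minus strand) had D-boxes at -154 and -202 bp. The Arntl stretch (chr7:113207530-113207558, plus strand, UTR) had a RORE core 13 bp before the nearest annotated start. These are matches of letters, not measured binding sites. Within 500 bp windows centred on the 39942 regions, 8.48% held an E-box, 8.33% an E′-box, 4.61% a RORE core, 5.00% a D-box and 0.996% a CRE. Of the windows on the 73 regions of the clock loci, 9 held an E-box, 4 an E′-box, 4 a RORE core, 7 a D-box and 1 a CRE.

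The place of the motifs relative to the acetylated regions was counted next. Within 2.5 kb of the TSSs of the 10 genes there were 19 E-boxes, and 4 of them (21.1%) were in a region, while regions covered 26.3% of the bases. In contrast, 9 (47.4%) lay in gaps of at most 1000 bp between neighbouring regions, and such gaps held 10.6% of the bases. For 4 of these 9 the gap is present in 1 list only. Over the 8669 protein-coding genes with a promoter marked in all 6 lists, 25.8% of E-boxes were in a region and 6.91% in a gap, with 21.3% and 2.45% of the bases. Per 10 kb this is 12.9 E-boxes in gaps and 2.31 in regions for the clock genes, against 4.50 and 1.94 for all marked genes. D-boxes had 7.15 matches per 10 kb of gap and 2.88 per 10 kb of region at the clock genes, against 0.913 and 0.750 over all marked genes. The RORE core, with 1 match in a gap and 3 in regions, had no such tilt. These counts are small, overlap in the same genes and are given as a description.

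**Figure D1:**
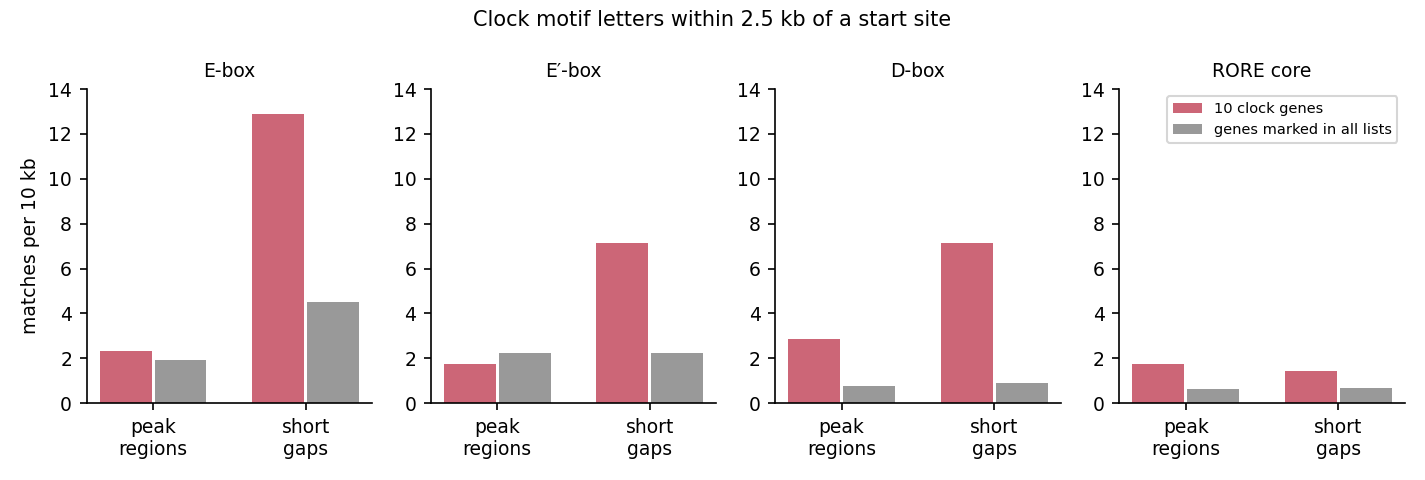
Matches of the E-box, E′-box, D-box and RORE core letters per 10 kb (vertical axis) in peak regions and in gaps of at most 1000 bp between regions, within 2.5 kb of a TSS, for the 10 clock genes and for all 8669 genes marked in all 6 lists. In gaps the clock genes had 12.9 E-boxes per 10 kb against 4.50 for all marked genes.

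The gaps were followed in single lists, since a gap between merged regions can rest on a peak of 1 list. The 3 E-boxes of the Nr1d1 intron lay between a pair of peaks in 5 of the 6 lists, and no list had a peak over them. 4xIOP replicate 2 was the exception because it lacked the peak on the far side. In Nr1d2 the E-boxes at +554 and +600 bp lay between peaks in 4 lists and under a single broad peak in control replicate 3, and the E-box at +452 bp was under a peak in all 6. The E-box of the Dbp intron lay between peaks in 3 lists, and that of Cry1 in 2 lists. At Per1 the upstream pair lay in a gap only in control replicate 3, which alone had a peak just after the start. The E-box at -162 bp from an inner start of Per1 and that at -364 bp of Nr1d1 also lay between peaks in 1 list each. Of the 19 E-boxes, the one at -526 bp from an inner start of Per1 was covered by a peak in 1 list, control replicate 2.

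**Figure D2:**
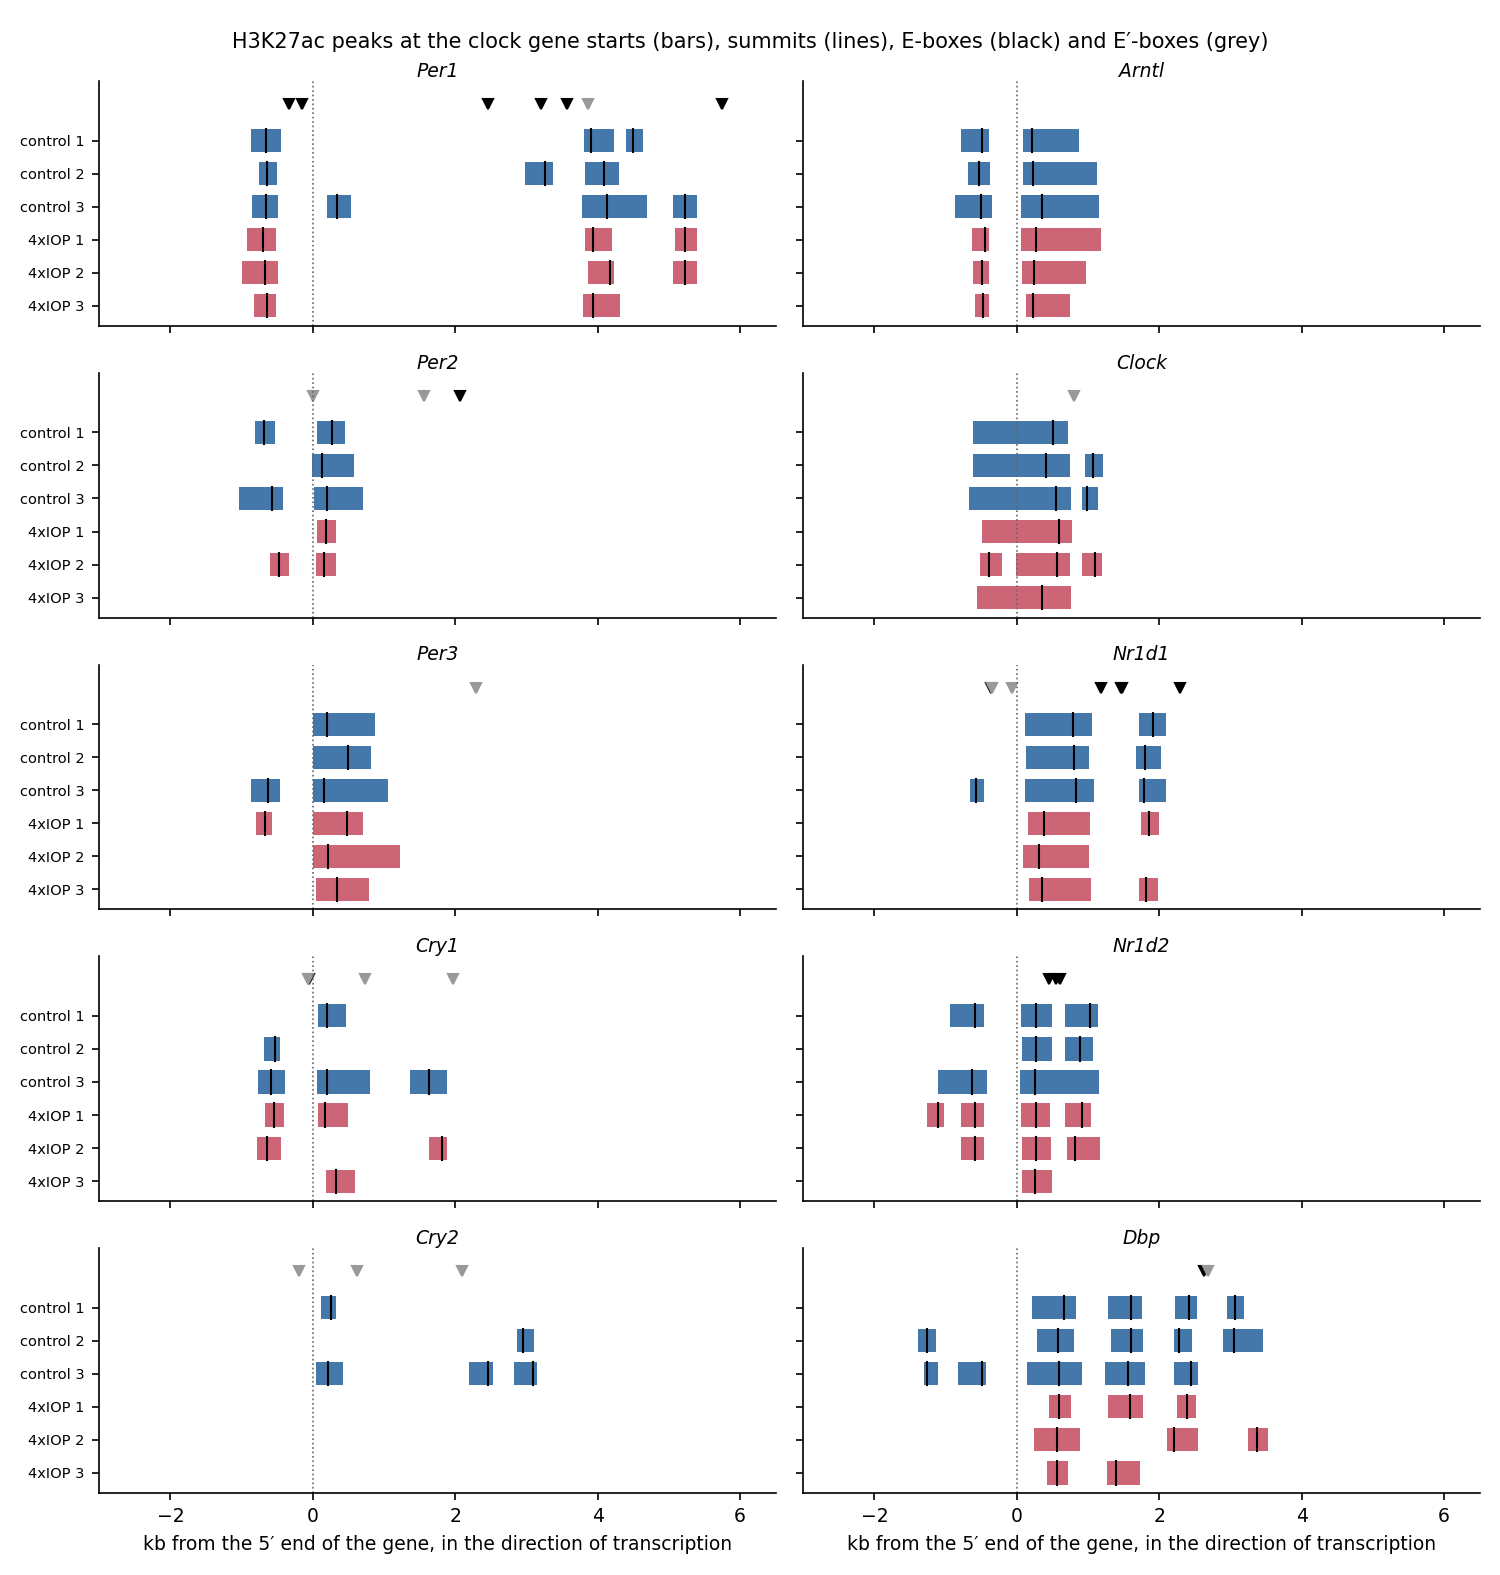
H3K27ac peaks of the 6 lists (bars, blue for control and red for 4xIOP) with their summits (black lines) along each clock gene, in kb from the 5′ end of the gene in the direction of transcription. Triangles mark E-boxes (black) and E′-boxes (grey). The 3 intronic E-boxes of Nr1d1 lie between peaks in 5 lists, and the Nr1d1 summits of the control lists lie further downstream than those of 4xIOP.

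Next, the promoters were counted. A promoter counted as marked if a peak overlapped 2.5 kb on either side of a TSS, as in 39.5% of all protein-coding genes in all 6 lists. Of the clock genes 8 of 10 were marked in all 6 (Per1, Per3, Cry1, Arntl, Clock, Nr1d1, Nr1d2 and Dbp). Per2 was marked in 5 lists and missed in 4xIOP replicate 3. Cry2, the repressor partner of the PER proteins with a role partly redundant with that of Cry1, was marked in control replicates 1 and 3 only. The 3 control lists held 10, 9 and 10 marked clock promoters and the 4xIOP lists 9, 9 and 8, with means of 9.67 ± 0.577 and 8.67 ± 0.577 (SD, n = 3). Over all protein-coding genes 48.6, 46.2 and 56.9% of promoters were marked in the control lists and 47.4, 45.7 and 44.6% in 4xIOP, which is lower on average in 4xIOP as well. The difference for the clock genes was -1 promoter, and -2 for the lists labelled replicate 3 alone. No clock promoter was marked in all lists of one group and none of the other, against 0.360% of all protein-coding genes for control and 0% for 4xIOP.

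Over the whole loci, control lists called 38, 37 and 67 of the 73 regions and 4xIOP lists 40, 36 and 27. Of all regions, the control lists called 50.1, 44.8 and 89.1% and the 4xIOP lists 46.6, 47.9 and 36.4%, so that the clock loci followed the length of the lists and the counts are no result about these genes. The groups overlapped, and control replicate 3 decided the size of the difference: it was -13 regions, -3.17 without that list and -40 for the lists labelled replicate 3 alone. With the same number of top peaks taken from every list it was 0.667. Of the 73 regions 20 were called in all 6 lists (27.4%, against 26.4% of all regions), 9 of them at a start of a clock gene, 9 at a promoter of a neighbouring gene and 2 elsewhere. Another 21 were called in 1 list, which was control replicate 3 for 16. No clock region was called in all lists of one group and none of the other, as was the case for 1.05% of all regions for control and 0.0150% for 4xIOP.

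The strength of each gene was read from its strongest promoter peak. The number of fragments at a summit was recovered from fold enrichment and p, and divided by the median of the 10529 regions shared by all 6 lists (relative summit), so that 1 is a typical shared region of the same list. On this scale Nr1d2, Nr1d1, Clock, Per1, Dbp, Per3 and Arntl were above 1 in every list, and Per2, Cry1 and Cry2 below 1 in every list in which they were called.

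**Figure D3:**
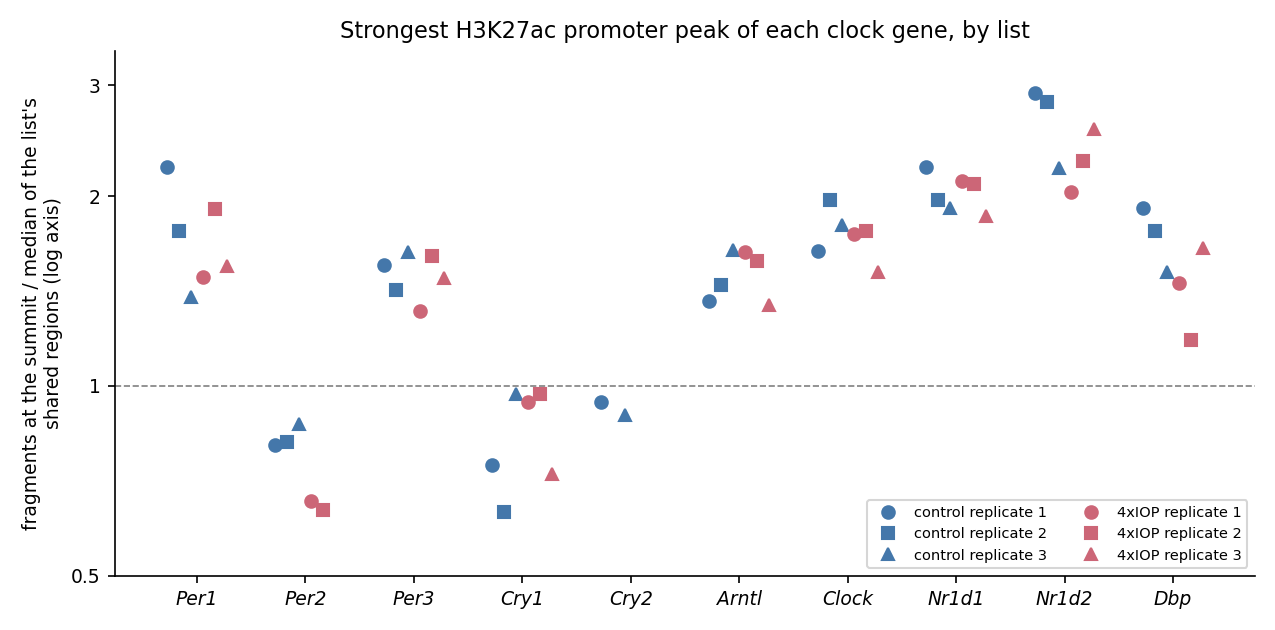
Fragments at the summit of the strongest promoter peak of each clock gene, divided by the median of the shared regions of the list (log axis), for 3 control lists (blue) and 3 4xIOP lists (red), with 1 point per list. The other genes lie above the dashed line at 1 in all lists, while Per2, Cry1 and Cry2 lie below it.

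Of the negative limb, Per1 (a repressor that light induces directly) had relative summits of 2.22, 1.76 and 1.39 in the control lists and 1.49, 1.91 and 1.55 in 4xIOP, from 80, 67 and 97 and from 52, 63 and 45 fragments. The groups overlapped. Its acetylation lay around several starts. One region called in all 6 lists lay over an inner start (chr11:69098997-69099911, exon and intron). The other, which had the higher mean fold rank and stands for Per1 below, was upstream (chr11:69094222-69094771, outside the gene), with summits at -694 to -636 bp from the first TSS. The strongest Per1 peak was the inner one in control replicates 2 and 3, at 67 and 97 fragments against 58 and 96 upstream. In 4xIOP replicate 1 both regions had 52. Of the 9 clock promoter regions called in all 6 lists, 7 had the median summit downstream of the nearest TSS, as had 75.4% of 8246 shared promoter regions. The others were the upstream regions of Per1 and Arntl.

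Per2, the PER gene whose loss alone disturbs rhythms most, had the weakest starts of the 3 Per genes by relative summit, though not by fold enrichment. Its region over the first exon and intron (chr1:91458625-91459330) had relative summits of 0.806, 0.816 and 0.871 in control, of 0.657 and 0.636 in 4xIOP replicates 1 and 2, and no peak in 4xIOP replicate 3. By fold enrichment it ranked at percentiles 87.2, 78.3 and 86.4 of the peaks of the control lists and at 58.3 and 58.6 in 4xIOP. All control values were above all 4xIOP values on both of these scales. They overlapped as summit over the genome mean, at 13.2, 9.17 and 24.7 against 11.4 and 9.90, and in the 10 kb window, at 1.70, 1.5 and 3.10 against 2.15 and 1.90 times the genome mean. By the names the lists carry, the groups would overlap on both. With a list without a value no test was run. Of 2666 regions called in all 3 control and 2 4xIOP lists, 15.6% were lower in this way by fold percentile and 4.31% by relative summit. For the lists labelled replicate 3 there is a value of 0.871 on one side and no peak on the other.

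Per3, which is less needed for rhythm, was acetylated at its start in all lists (chr4:151043444-151044667, exon and intron). Its relative summits were 1.56, 1.42 and 1.63 in control and 1.31, 1.61 and 1.48 in 4xIOP, and the groups overlapped.

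Cry1, the stronger repressor of the CRY pair, was marked in all 6 lists, but through different regions. A region over the first exon and intron (chr10:85184259-85185006) was called in control replicates 1 and 3 and 4xIOP replicates 1 and 3, and an upstream region (chr10:85185458-85185853) in control replicates 2 and 3 and 4xIOP replicates 1 and 2. The E-box and E′-box printed above lie in the 451 bp between them. Its strongest promoter peak had relative summits of 0.750, 0.632 and 0.971 for control and 0.943, 0.970 and 0.724 for 4xIOP, with overlapping groups. Within an intron, centred 22.4 and 23.6 kb from the start, lay a pair of regions (called in 4 and 2 lists) in 10 kb windows with 4.65 to 10.4 times the fragments of the genome mean. The windows at its promoter regions had 2.28 to 5.48 times. By fold enrichment the intronic regions were weak calls, at percentiles of 0.691 to 8.62 of their lists, against 10.4 to 71.5 for the promoter regions.

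Cry2 had a promoter peak only in control replicates 1 and 3 (chr2:92433613-92433994, exon and intron), with relative summits of 0.944 and 0.900. Both had fold enrichments among the lowest 22.4% of their list, while the 10 kb windows around them held 5.22 and 7.94 times the genome mean. A low fold is that of a peak standing little above its own surroundings. A list without a call gives no level for the gene.

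Next came the positive limb. Arntl, whose protein is the partner of CLOCK, had relative summits of 1.36, 1.45 and 1.64 for control and 1.63, 1.58 and 1.34 for 4xIOP over its first exon and intron (chr7:113207522-113208641). The RORE core printed above lies in this region, under a peak in 3 of the 6 lists and between peaks in 2. A second region upstream (chr7:113206591-113207111) was called in all 6 lists, and the 410 bp between them held the annotated first start. Clock, the histone acetyltransferase of the pair, had 1.64, 1.97 and 1.8 in control and 1.74, 1.76 and 1.52 in 4xIOP. Its region (chr5:76304023-76305462) spans the start and was 1440 bp long. This region also lay within 2.5 kb of starts of Gm43658 and Gm7467, so that its values cannot be assigned to Clock alone. By relative summit the groups overlapped for both Arntl and Clock. On other scales Clock did not overlap. Its fold was 6.60, 6.72 and 6.91 in the control lists against 5.96, 5.74 and 5.23 in 4xIOP, at percentiles of 89.3, 92.4 and 84.8 against 83.7, 83.9 and 69.4 of the list. Its peaks were 1338, 1363 and 1437 bp long against 1261, 1066 and 1328 bp. The exact permutation test gave p = 0.1 for each of the 3 measures, the smallest possible with n = 3. All 4xIOP lists were below all control lists in fold in 9.18% of the shared regions, in fold percentile in 11.8% and in peak length in 11.3%, and in 3 of the 20 clock regions on each. These scales were looked at after the values were seen. Clock was not alone in such an order. By the percentile of the 10 kb window, control means were 95.2 for Per1 and 96.8 for Dbp, and 4xIOP means 92.8 and 93.7. These groups did not overlap by the labels (exact permutation p = 0.1 each), but would by the names the lists carry. Nr1d2 had such an order by the percentile of its summit, as given below. Shares over all regions were not counted for these genes. Ranked among the shared regions alone, the Clock scores overlapped, and by the names the lists carry the fold values of Clock overlap too.

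Among the repressors of Arntl, Nr1d2 had the strongest peak of the 10 genes in 5 of the 6 lists. The relative summits of Nr1d2 were 2.92, 2.82 and 2.21 for control and 2.03, 2.27 and 2.55 in 4xIOP, from 105, 107 and 155 and from 71, 75 and 74 fragments. Nr1d1, the other REV-ERB gene, reached 2.22, 1.97 and 1.91 in control and 2.11, 2.09 and 1.86 in 4xIOP and was the highest of the 10 in 4xIOP replicate 1. By relative summit the groups overlapped for both. By the percentile of its summit within the list Nr1d2 was at 99.6, 99.4 and 99.8 in control. It was at 98.2, 97.8 and 99.2 in 4xIOP, without overlap (exact permutation p = 0.1). By the names the lists carry, these percentiles would overlap. The summit of Nr1d2 lay within 248 to 269 bp of the start in all 6 lists.

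The summit within the Nr1d1 region (chr11:98774251-98775242, exon and intron) differed in position between the groups. It lay 791, 809 and 835 bp downstream of the TSS in control and 386, 306 and 355 bp in 4xIOP, so that the groups were 405 bp apart. The means were 812 ± 22.1 and 349 ± 40.3 bp (SD, n = 3), at the smallest p that an exact two-sided permutation test of 3 against 3 lists can give (p = 0.1). Summit positions did not overlap between the groups in 3 of the 20 clock regions called in all lists and in 9.85% of all such regions. A separation at least as large was found in 1 of the 20 and in 0.171% of all shared regions, or 0.407% of those at least as long. This measure was chosen after its values were seen. The height away from the summit is not in the lists, and the extent of the region was similar, with peaks of 886 to 970 bp in control and 866 to 924 bp in 4xIOP. By the names the lists carry, the positions of the groups would overlap.

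A further region lay about 8 kb upstream of Nr1d1 (chr11:98782564-98784270) and was called in all 6 lists, in windows with 4.24 to 11.04 times the genome mean. It held an E′-box at -7680 bp that a peak covered in all 6 lists. The one other region called in all lists away from any promoter lay about 5.6 kb upstream of Clock (chr5:76309911-76310791), with summits of 14 to 37 fragments.

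Dbp, the output factor, had relative summits of 1.92, 1.76 and 1.51 for control and 1.46, 1.18 and 1.66 for 4xIOP, with overlapping groups. Its starts carried 5 regions. The region called in all 6 (chr7:45705233-45706004, exon and intron) was followed at about 1.3 and 2.1 kb by others that were called in 5 lists each, the first missing in 4xIOP replicate 2 and the second in 4xIOP replicate 3.

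For single genes, the summit over the genome mean was compared between the groups by the two-sided exact permutation test in the 8 genes with a promoter peak in all lists. The smallest p was that of Dbp, at 31.4 ± 11.6 for control against 20.8 ± 3.94 for 4xIOP (SD, n = 3, exact p = 0.2), and the others were between 0.3 and 0.9. The strongest Dbp peak lay in different regions in different lists. In the one Dbp region called in all lists the values were 29.5 ± 11.2 and 20.5 ± 3.37 (SD, n = 3, exact p = 0.4). No p under 0.1 is possible. These are 8 comparisons, and none passed.

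Fold enrichment and the density around a summit ordered the genes differently. The background of a peak, solved from its fold and p, is the number of fragments in the 10 kb around it. Whether the peak caller was given an input library is not stated in the sources used here, and with one these windows would hold input fragments rather than acetylation. Regions of Per1, Nr1d1 and Dbp had windows at mean percentiles of 94.0 ± 1.72, 94.1 ± 2.00 and 95.3 ± 2.35 of their lists (SD, n = 6), and fold enrichments at percentiles of 25.7 ± 12.4, 47.9 ± 6.09 and 11.8 ± 8.41. Fold was thus low for Per1 and Dbp and about that of a median peak for Nr1d1, in a dense local background. Per3 and Clock had the opposite order, with windows at 70.5 ± 4.23 and 77.5 ± 5.16 and folds at 83.8 ± 5.33 and 83.9 ± 7.90. Nr1d2 was high on both, at 87.7 ± 3.37 and 86.7 ± 9.98, and Arntl was at 79.6 ± 4.87 and 67.0 ± 8.00. A window percentile over 90 with a fold percentile under 50 was found in 3 of these 7 regions and in 9.17% of the shared regions. Windows of 10 kb around these 3 summits take in other regions of the same gene.

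**Figure D4:**
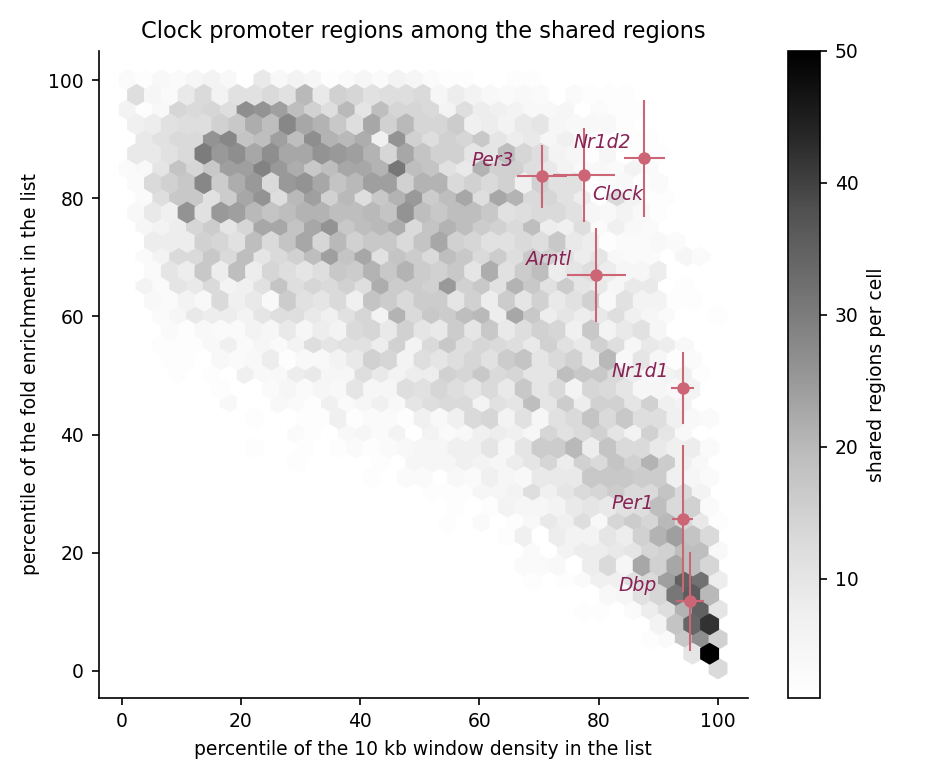
Percentile of the fold enrichment (vertical axis) against percentile of the 10 kb window density (horizontal axis) within a list, as means over the 6 lists. Grey cells count the 10529 shared regions, and points with SD bars are the 7 clock promoter regions called in all lists. Per1, Nr1d1 and Dbp lie at window percentiles above 90 and fold percentiles below 50, and Nr1d2 lies high on both.

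The comparison of 4xIOP with control was then made over all 10529 shared regions at once, with limma on normal scores of the rank of the fold within each list. No region was higher (0%) or lower (0%) in 4xIOP at an adjusted p under 0.05, in the clock loci or elsewhere. At an unadjusted p under 0.05 there were 334 regions (3.17%), and 0 of the 20 clock regions. No setting tried gave a call at an adjusted p under 0.05. The 7 clock promoter regions had differences of 0.31 ± 0.35 for Per1, 0.10 ± 0.30 for Per3, 0.04 ± 0.30 for Arntl, -0.22 ± 0.33 for Clock, 0.31 ± 0.30 for Nr1d1, -0.12 ± 0.38 for Nr1d2 and 0.05 ± 0.36 for Dbp (difference of scores, 4xIOP minus control, ± SE). Each was at an adjusted p of 0.9999 (limma). All were smaller than or about as large as their SE. For the lists labelled replicate 3 alone all 7 were above 0, at 1.07 for Per1, 0.13 for Per3, 0.24 for Arntl, 0.13 for Clock, 0.54 for Nr1d1, 1.00 for Nr1d2 and 0.80 for Dbp, with no test, and one of these lists is the control list that stood apart.

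The scores of Nr1d1 were -0.64, -0.69 and -0.93 in control and -0.60, -0.32 and -0.39 in 4xIOP, so that the groups did not overlap. The same held for a region at the promoter of Ilkap in the Per2 locus (difference 0.47 ± 0.31). By the names the lists carry, the scores would overlap at both. Such an order, with 4xIOP higher, was found in 2 of the 20 clock regions and in 4.31% of all regions, and the opposite order in 0 and in 4.05%. At Nr1d1 the sign turned when summit fragments (-0.06) or the 10 kb window (-0.13) were ranked.

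When the 10 kb window density was ranked instead of the fold, 14 of the 20 clock regions were lower in 4xIOP and 6 higher, with a median difference of -0.07 against 9.58e-05 over all regions. The unadjusted p was under 0.05 in 2 of the 20 and in 2.99% of all shared regions. They were the Dbp region (-0.28 ± 0.12, adjusted p = 1, limma) and the promoter of Mapk8ip1 in the Cry2 locus (-0.23 ± 0.09, adjusted p = 1, limma). No region passed after adjustment. Neighbouring regions of a locus share fragments in such windows and are not independent.

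**Figure D5:**
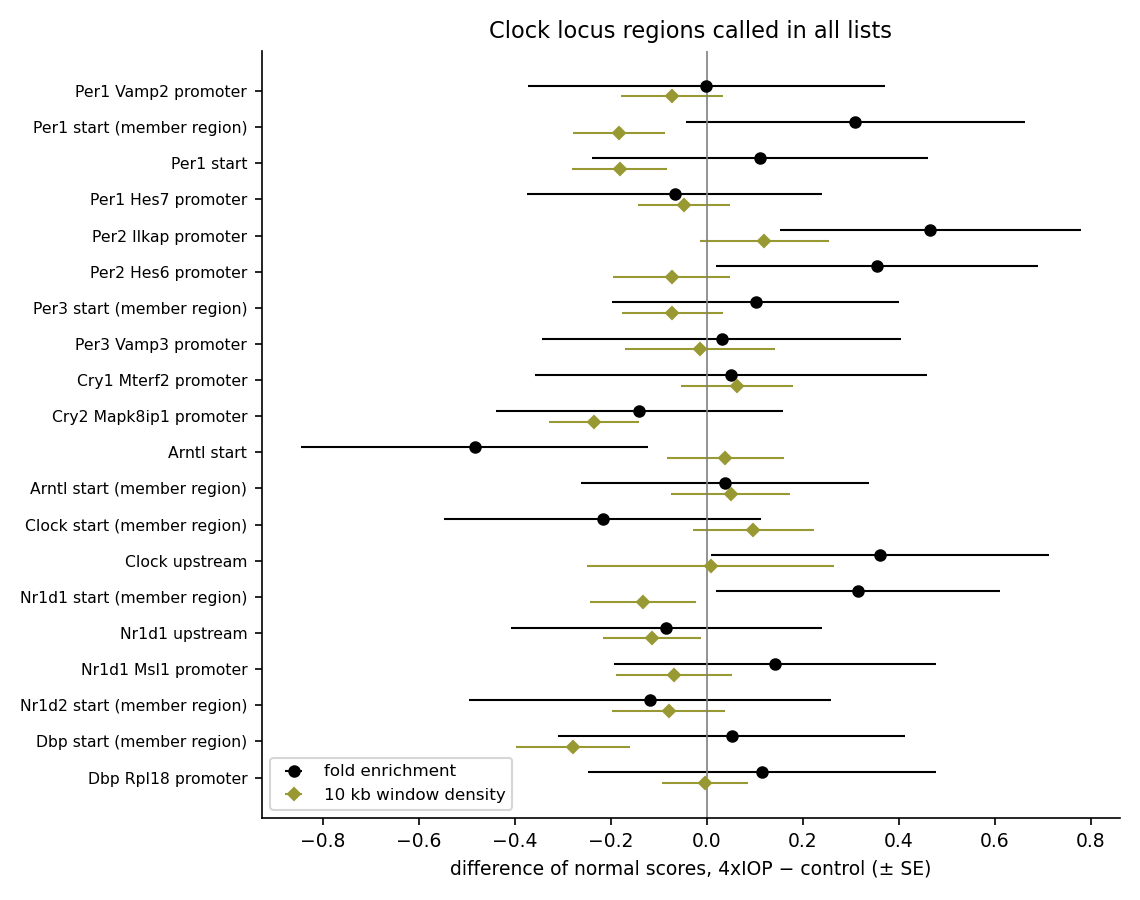
Difference of normal scores between 4xIOP and control (horizontal axis, bars ± SE from limma, n = 3 lists per group) for the 20 clock locus regions called in all lists, by fold enrichment (black) and by 10 kb window density (olive). The black points lie on both sides of 0, from -0.48 to 0.47, and 14 of the 20 olive points are below 0.

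E-box targets were set against RORE targets within each list. The mean score of the regions of Per1, Per3, Nr1d1, Nr1d2 and Dbp minus that of Arntl and Clock was -0.49, -1.23 and -0.74 in control and -0.88, -0.70 and -0.22 in 4xIOP. The means were -0.82 ± 0.37 and -0.60 ± 0.34 (SD, n = 3), and the groups overlapped. The difference of 0.22 turned to -0.08 without 4xIOP replicate 3 and to -0.09 with summit fragments, and became 0.52 for the lists labelled replicate 3 alone. With 10 kb windows the values were 0.71, 0.69 and 0.45 in control and 0.40, 0.29 and 0.50 in 4xIOP, also overlapping, and the difference was -0.22.

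Promoters of neighbouring genes, away from the starts of the clock genes, accounted for 21 of the 73 regions. In the Per1 locus the promoters of Vamp2, a synaptic vesicle protein, and Hes7 were called in all 6 lists. The same was true of Ilkap and Hes6 near Per2, Vamp3 near Per3, Mterf2 near Cry1, Mapk8ip1 near Cry2, Msl1 near Nr1d1 and Rpl18 with Sphk2 near Dbp. The score differences of these 9 regions were between -0.14 and 0.47.

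The other genes of the clock were read in the same way from a list of 22. Of these, 15 were marked at the promoter in all 6 lists and each had a region that could be tested, 5 with a higher and 10 with a lower score in 4xIOP. None passed (smallest adjusted p = 0.9999, limma). The smallest unadjusted p was that of Usp2, a deubiquitinase with clock-driven expression (0.43 ± 0.30), followed on the lower side by Tef, a relative of Dbp (-0.35 ± 0.35). Nampt, the NAD+ salvage enzyme, was next among the higher (0.16 ± 0.45) and Nono among the lower (-0.23 ± 0.31). Arntl2, the paralog of Arntl, was marked in no list.

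Of 6 genes of the retinal clock and its outputs, Drd4, a photoreceptor dopamine receptor, and Adcy1, an adenylyl cyclase, were marked in all 6 lists. Both had lower scores in 4xIOP that did not pass (-0.34 ± 0.36 and -0.37 ± 0.30, both at an adjusted p of 0.9999, limma). The promoters of Opn4, Aanat, Th and Vip had no peak in any list. Opn4 encodes melanopsin, Aanat an enzyme of melatonin synthesis, Th the rate-limiting enzyme of dopamine synthesis and Vip a peptide of amacrine cells.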

How the data were processed

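H3K27ac ChIP-seq of bulk mouse retina was available as 1 peak list per sample in 10-column narrowPeak layout (3 control, 3 4xIOP, grouped by the labels). The deposited fold enrichment is the authors' ratio of fragment pile-up to local background at the summit. Beside it, each peak has a deposited −log10 p-value and a deposited −log10 q-value, and the deposited integer score was not used. Other deposited columns give the interval, the summit and the peak name. The lowest −log10 q of a list was 1.31 to 1.40. The submitters' processing notes name mm10, STAR 2.7.8a, MACS2, HOMER, edgeR and bedtools 2.29.2, with no role for each. The caller settings are not given in the sources used here.

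Depth is not stated in the lists. Fragments and background were solved from fold and p under a Poisson model, and the p computed back from them differed from that deposited by under 0.001 in −log10 units for 99.99% or more of the peaks in every list. Only peaks of the autosomes and sex chromosomes entered, and a region counted as called at 1 bp of overlap. Regions called in all 6 lists were tested with limma 3.58.1 (R 4.3.3) on normal scores, with Benjamini-Hochberg adjustment over 10529 regions at 0.05. The fit was first run on simulated data with independent normal errors, and no result here rests on that run. Other steps used Python 3.11.15, numpy 2.4.6, scipy 1.17.1 and pandas 2.3.3. The 10 genes, the lists and the named regions were chosen with earlier results of these data known. Named were all 10 genes, the region of each called in the most lists, neighbouring promoters, the distal regions called in the most lists, and of the other clock genes those in no list and the 2 per direction with the smallest p. Further regions of the 10 genes (Per1 inner start, Cry1 first exon, Arntl upstream, Dbp downstream) and the summit positions were chosen after their values were seen. Alternatives were other ranked values, stricter peaks, other overlaps and windows, a term for fragment length, the replicate block and leaving out lists.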

Additional observations from a re-analysis of the deposited data

How the results depend on the processing

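The counts of regions passing limma were 0 in every setting, at adjusted p-values too far from the threshold to show stability. For the lists labelled replicate 3 alone, the difference in marked clock promoters was -2 and that in clock locus regions -40. Over all 6 lists the latter was -13, 0.67 once lists were cut to equal length and -3.17 without control replicate 3. By the 10 kb window, a ranking chosen after seeing the data, the arm difference was -0.22, by summit fragments -0.09 and without 4xIOP replicate 3 -0.08, against 0.22. The replicate block gave 0 regions higher and 0 lower as well (limma). Same-numbered lists did not deviate together (correlations -0.02, -0.06 and -0.15), so that the numbers are not taken as pairs.

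Of the recomputed score differences of the 7 clock promoter regions, 25 turned in sign and 82 kept it. With a term for fragment length, the fold score differences were 0.22 for Per1, 0.045 for Per3, 0.12 for Arntl and -0.31 for Clock. For Nr1d1, Nr1d2 and Dbp they were 0.30, -0.080 and 0.21. The replicate block cannot move a difference in this balanced design. By summit fragments they were -0.035 for Per1, -0.16 for Per3, -0.062 for Nr1d1 and -0.30 for Dbp, and Nr1d2, at -0.12 by fold, was at -0.41. By the 10 kb window they were -0.18 for Per1, -0.072 for Per3, 0.10 for Clock, -0.13 for Nr1d1 and -0.28 for Dbp, and with a term for fragment length added -0.20, -0.030, 0.15, -0.12 and -0.27. For the lists labelled replicate 3 alone all 7 were above 0, from 0.13 for Per3 and Clock to 1.00 for Nr1d2 and 1.07 for Per1. Leaving out 1 list gave 0.097 (without control replicate 3) to 0.64 (without control replicate 1) for Per1, 0.0015 (without control replicate 2) to 0.21 (without control replicate 1) for Per3, -0.050 to 0.16 for Arntl, -0.50 to 0.0044 for Clock, -0.43 to 0.24 for Nr1d2 and -0.37 to 0.34 for Dbp. The cause was not tested. With 3 lists per group, no counts away from summits and no value where a peak is not called, small changes at clock genes cannot be resolved.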
